A study of Mus musculus with 51 samples.

Results

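The genes surrounding Smchd1 on mouse chromosome 17 were examined in embryonic stem cells (mESCs) that had, or had not, lost the maternal Smchd1 allele. A gene was included when its start coordinate in GRCm38 fell between 66344489 and 76475343 on chromosome 17, which is 5 Mb to either side of Smchd1 (71344489 to 71475343, minus strand). The start coordinate is the lowest coordinate of a gene on either strand, and distances below were taken from it. Smchd1 itself was left out. The rule used position only and took 101 of the 35591 genes counted, 49 on each side and 3 within the Smchd1 gene, and left 1439 other genes on the chromosome for comparison.

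SMCHD1 is a noncanonical SMC family protein that binds chromatin and is needed for silencing on the inactive X chromosome, at some imprinted genes and at several gene clusters. Because a targeted allele is inherited together with the DNA next to it, genes beside a deleted gene are linked to it in every cross, whatever the deletion itself does. The neighbours of Smchd1 have no common function. They encode, among others, non-muscle myosin light chains, a kinetochore protein, a laminin chain, a subunit of the histone H3K4 methyltransferases, receptors, and genes of nerve and immune cells.

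The cells were 6 male C57BL/6/Cast F1 lines kept in 2i + LIF, a medium with kinase inhibitors and leukaemia inhibitory factor that holds mESCs in the naive pluripotent state. The 3 wild-type (wt) lines were Smchd1[fl/+], and the 3 maternally deleted (mat del) lines were Smchd1[del/+]. Both groups received a C57BL/6 chromosome with a floxed Smchd1 allele from the mother and a wild-type Castaneus chromosome from the father. The groups differ in Zp3-Cre, a transgene active in growing oocytes. It deleted the floxed allele before fertilisation in the mat del group. Those embryos came from Smchd1-null oocytes, so they lacked maternal SMCHD1 as well as carrying a deleted allele. Absence of maternal SMCHD1 and heterozygosity cannot be told apart in the 6 libraries. Each line was derived from a separate blastocyst and is represented by 1 library. The counts add both parental alleles together, so the maternal and paternal copies of a neighbour were not told apart here.

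Libraries held 27526359 to 126716460 counts. Levels are given as CPM (counts in each 1000000 of the TMM-scaled library size), as mean ± SD of 3 lines where lines are averaged, and fold changes are mat del over wt. Mat del line 3 stood apart from the other 5 lines in how its levels varied with transcript length, as given below. The mRNAs of the naive state were abundant in all lines, with a summed level of 11 pluripotency genes of 4725 to 5278 CPM in wt and 4897 to 5386 CPM in mat del lines. Of these, Klf4 and Tbx3 were wholly higher in mat del lines, and the others overlapped. Klf4 measured 117.6, 126.4 and 108.0 CPM in wt and 144.8, 144.5 and 146.0 CPM in mat del lines. Tbx3 had a log2 fold change of 0.25. The 5 trophoblast genes summed to 22.4 to 27.6 CPM in wt and 19.4 to 36.5 CPM in mat del lines. Most of this was Eomes in every line, and nearly all of the rest was Krt8 and Krt18. Eomes, Krt8 and Krt18 were detected in every line, and each overlapped between the genotypes. The other members, Elf5 and Cdx2, were at or below 0.148 CPM in every line. The 4 fibroblast genes summed to 1.84 to 6.09 CPM in wt and 1.51 to 3.15 CPM in mat del lines. The 10 primitive endoderm genes summed to 409.1 to 512.1 CPM in wt and 458.2 to 521.5 CPM in mat del lines, and most of this was Sparc. Of the 6 marker lists, only primed epiblast and mesoderm and neural genes had summed levels that did not overlap between the genotypes. The 4 primed epiblast genes summed to 79.6 to 108.1 CPM in wt and 66.1 to 75.5 CPM in mat del lines. Of these only Dnmt3b did not overlap by itself, at 40.1, 44.8 and 79.1 CPM in wt and 37.9, 28.7 and 34.5 CPM in mat del lines. Otx2 (log2 fold change 0.09), Pou3f1 and Fgf5 overlapped. The 4 mesoderm and neural genes summed to 10.1 to 11.5 CPM in wt and 13.2 to 14.3 CPM in mat del lines. Of these T and Sox1 did not overlap, and Pax6 and Mixl1 did. Over all tested genes, 4.70% were wholly higher and 4.68% wholly lower in mat del lines. The part of these lists in the values below was not tested.

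The targeted gene was lower in the mat del lines. Smchd1 stood at 107.0, 123.8 and 119.3 CPM in wt lines 1, 2 and 3 and at 63.7, 72.0 and 90.7 CPM in mat del lines 1, 2 and 3. All mat del lines lay below all wt lines, and the mat del mean was 64.7% of the wt mean (75.5 ± 13.8 against 116.7 ± 8.71 CPM). On the log2 scale the difference was -0.63 with a standard error (SE) of 0.14, with an unadjusted p of 0.00231 and an adjusted p of 0.992 in edgeR's quasi-likelihood test. By its p it ranked 1 of the 934 genes tested on chromosome 17 and 6 of the 17696 tested in all. Counts over the whole gene include reads from the paternal allele and any RNA still made from the deleted one.

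None of the neighbours of Smchd1 passed the test, and neither did Smchd1 itself. A neighbour could therefore differ as much as the deleted gene without being called. Of the 101 genes, 32 had no count in any library, 17 had counts too low for edgeR's filter and 52 were tested. With edgeR's quasi-likelihood test, 0 of the 52 had an adjusted p under 0.05, as did 0 of all 17696 genes tested (0%). DESeq2 called 0 of the 52 and 0 of all genes, and edgeR's exact test called 0 of the 52 and 2 of all genes. At an unadjusted p under 0.05, 1 of the 52, Ptprm, was higher in mat del lines, beside 1.07% of all genes, and 0 were lower, beside 1.17% of all genes. The line number was also used as a block, a pairing read from these same data that no label states. With the block these counts were 3 higher (Ptprm, Lama1 and Zbtb14), beside 2.07% of all genes, and 1 lower (Dlgap1), beside 2.06%, with 0 past the adjusted threshold. Leaving out wt line 1 took the count of 1 without the block to 0, beside 0.688% of all genes.

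The middle of the interval lay close to no difference. The median log2 fold change of the 52 tested genes was -0.038, with quartiles at -0.208 and 0.076, beside -0.031 for the 881 other tested genes of chromosome 17 (quartiles -0.172 and 0.11) and -0.009 for all tested genes. Fold changes ran from -0.75 (Alk) to 0.75 (Ptprm) on the log2 scale, and 23 were above and 29 below 0. The rest of the chromosome ran from -1.87 to 1.32. An absolute log2 fold change over 0.5 was reached by 3 of the 52 genes (5.77%), beside 9.19% of the rest of the chromosome. The 3 were Ptprm, Alk and Themis3, all below 3 CPM in both genotype means.

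**Figure D1:**
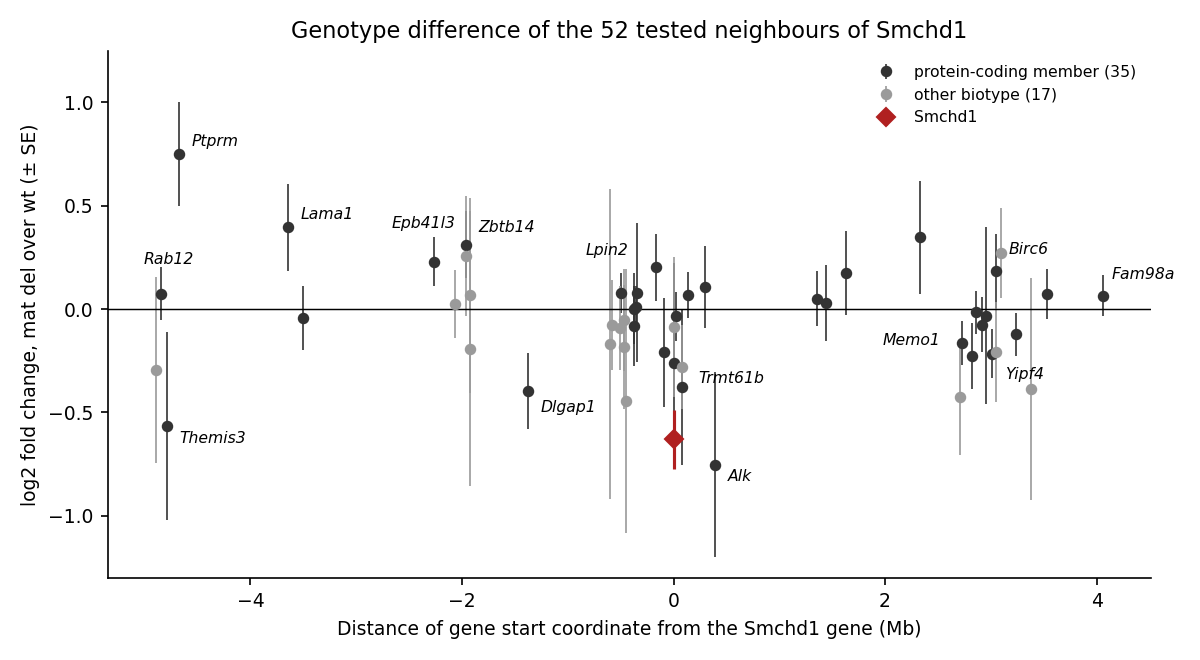
The log2 fold change of each of the 52 tested neighbours (mat del over wt, with its SE) is plotted against the distance in Mb of its start coordinate from the Smchd1 gene, with genes inside Smchd1 at 0. Dark points are protein-coding genes, grey points other biotypes and the diamond is Smchd1 at -0.63, and most points lie within 0.5 of 0, with Ptprm at 0.75 and Alk at -0.75 as the ends of the range.

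Whether the mat del lines lay wholly above or below the wt lines was counted as well. This was so for 2 genes in the higher direction (Ptprm and Epb41l3), 3.85% of the 52 beside 4.70% of all tested genes, and for 6 in the lower direction (Dlgap1, Trmt61b, Alk, Gm49883, Memo1 and Yipf4), 11.5% of the 52 beside 4.68%. On the rest of chromosome 17 the shares were 4.99% and 4.65%. With mat del line 3 left out, a step added after its values were seen, the counts were 3 higher and 11 lower, beside 10.3% and 10.4% of all tested genes. No test was made over the list, and none of the 6 genes in the lower direction had an unadjusted p under 0.05 in edgeR's quasi-likelihood test, where the lowest was 0.0635 for Dlgap1.

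Genes for matrix, adhesion and signalling held both ends of the range. Ptprm encodes a receptor-type tyrosine phosphatase that mediates contacts between cells (66666947 to 67354457, minus strand). It measured 1.44, 1.84 and 1.34 CPM in wt lines 1 to 3 and 2.11, 2.57 and 3.21 CPM in mat del lines 1 to 3, so that the lowest mat del line was above the highest wt line. Its level was low throughout, at a mean of 0.236 RPKM (CPM per kilobase of exon) over the 6 lines. Its log2 fold change was 0.75 with an SE of 0.25, an unadjusted p of 0.0176 and an adjusted p of 0.992 in edgeR's quasi-likelihood test, and with 1 line left out at a time it ran from 0.59 to 0.92, with an unadjusted p of 0.0529 without wt line 1.

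Lama1 encodes the laminin alpha 1 chain of early embryonic basement membranes. It measured 69.5, 76.1 and 82.6 CPM in wt lines and 81.1, 81.7 and 137.7 CPM in mat del lines. Mat del line 3 stood well above the other lines, and mat del lines 1 and 2 lay just under wt line 3. The log2 fold change was 0.40 (SE 0.21, unadjusted p 0.0951 in edgeR's quasi-likelihood test), 0.10 without mat del line 3, and 0.35 with an unadjusted p of 0.0381 with the line number as a block. Alk encodes a receptor tyrosine kinase of the developing nervous system and was barely detected, at 0.252, 0.154 and 0.252 CPM in wt and 0.116, 0.120 and 0.143 CPM in mat del lines. Its genotypes did not overlap, and its log2 fold change of -0.75 had an SE of 0.45 (unadjusted p 0.131 in edgeR's quasi-likelihood test). Among the 5 tested genes of this list, 1 (Ptprm, counted above) had an unadjusted p under 0.05 in edgeR's quasi-likelihood test. Of all tested genes, 1.07% were called in this higher direction. The adjusted threshold was passed by 0 of the 5. The other 2, Emilin2 (a matrix glycoprotein) and Ltbp1 (which binds latent TGF-beta), had log2 fold changes of -0.21 and 0.07. Rasgrp3, a Ras activator, had too few counts for a test, with at most 10 in a library.

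The actomyosin and cytoskeleton genes ranged from abundant myosin light chain messages to a muscle gene below 1 CPM. Myl12a and Myl12b encode near-identical regulatory light chains of non-muscle myosin, and averaged 44.3 and 40.0 RPKM over the 6 lines. Myl12a was at 160.2, 135.7 and 148.4 CPM in wt and 153.2, 143.6 and 151.2 CPM in mat del lines, with a log2 fold change of 0.01 (SE 0.10). Myl12b varied more between lines, from 88.5 to 144.8 CPM in wt and from 91.3 to 125.8 CPM in mat del lines, with line 3 highest in both genotypes. Reads of such close paralogs can be assigned to the wrong copy, so their separate values are less certain. Epb41l3, a band 4.1 protein that ties membrane proteins to the actin cytoskeleton, measured 21.7, 22.4 and 23.6 CPM in wt and 23.9, 26.7 and 28.9 CPM in mat del lines. The genotypes just failed to overlap, and the log2 fold change was 0.23 (SE 0.12, unadjusted p 0.0903 in edgeR's quasi-likelihood test). Arhgap28 and Myom1, a protein of the muscle M-band that was at 0.523 ± 0.116 CPM in wt lines, had log2 fold changes of -0.04 and 0.08. Of the 5 tested genes of this list, 0 had an unadjusted p under 0.05.

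Among the chromatin and transcription genes, the larger differences turned on single lines. Dpy30, a core subunit of the SET1 and MLL histone H3K4 methyltransferases, had the second highest level of the interval per length, at a mean of 96.3 RPKM. It measured 104.5, 102.9 and 149.6 CPM in wt and 106.4, 93.0 and 105.4 CPM in mat del lines, and wt line 3 alone stood apart from the rest. Its log2 fold change of -0.23 (SE 0.16) became -0.03 without wt line 3. Zbtb14, a zinc finger transcription factor, measured 17.8, 18.6 and 21.1 CPM in wt and 20.9, 21.4 and 29.1 CPM in mat del lines, with mat del line 3 the highest, and its log2 fold change was 0.31 (SE 0.16, unadjusted p 0.0896 in edgeR's quasi-likelihood test). That value was 0.15 without mat del line 3 and 0.30 with the line number as a block (unadjusted p 0.0318). Tgif1, a homeodomain repressor of TGF-beta responses, was close to equal at 79.1 ± 0.806 CPM in wt and 83.6 ± 5.80 CPM in mat del lines, and Lbh, a transcription cofactor, had a log2 fold change of 0.03. L3mbtl4 had no count in any library. Of the 4 tested genes of this list 0 had an unadjusted p under 0.05, or 1 (Zbtb14, higher) with the block. The block called 2.07% of all tested genes in that direction.

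**Figure D2:**
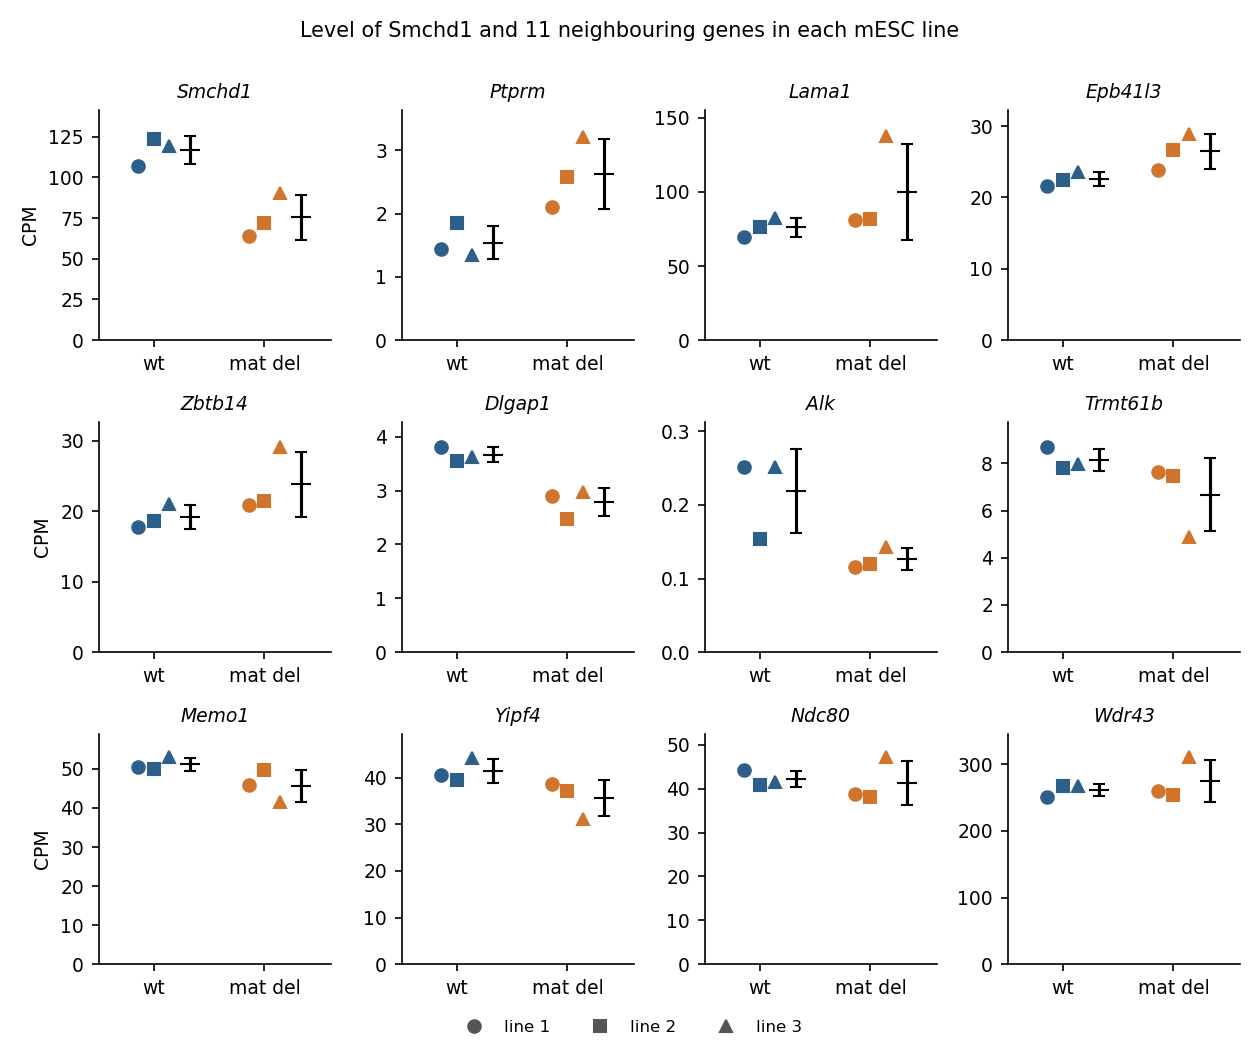
Level in CPM of Smchd1 and 11 neighbours in each wt (blue) and mat del (orange) line, with the line number shown by the shape of the point and the mean ± SD of 3 lines beside the points, each axis starting at 0. The genotypes are apart for Smchd1, Ptprm, Epb41l3, Dlgap1, Alk, Trmt61b, Memo1 and Yipf4, and mat del line 3 (orange triangle) is the highest of the 6 lines for Lama1, at 137.7 CPM.

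Cell division genes include Ndc80, the tested gene outside Smchd1 with the start coordinate nearest to it. It encodes a subunit of the outer kinetochore. Its start coordinate, the 3' end of this minus-strand gene, is 20.8 kb above the end coordinate of Smchd1. Ndc80 measured 44.3, 40.9 and 41.6 CPM in wt and 38.7, 38.1 and 47.2 CPM in mat del lines. The ranges overlapped, and the log2 fold change was -0.03 (SE 0.12). Birc6, a very large inhibitor of apoptosis with ubiquitin ligase activity, was at 161.3 to 180.6 CPM in wt lines and at 156.9, 167.8 and 252.5 CPM in mat del lines, so that its log2 fold change of 0.18 (SE 0.18) was -0.06 without mat del line 3. Spast, a microtubule-severing ATPase, and Clip4, a CAP-Gly protein, had log2 fold changes of -0.02 and 0.11. Spdya, an activator of cyclin-dependent kinases known from meiosis, was at 4.25, 3.57 and 2.69 CPM in wt and 2.99, 3.68 and 1.26 CPM in mat del lines, with a log2 fold change of -0.38 (SE 0.37), or -0.063 without mat del line 3. Of these 5 genes 0 had an unadjusted p under 0.05.

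Of the 4 RNA-processing genes, Wdr43 had the highest level, at a mean of 56.2 RPKM, and Trmt61b the lowest, at 2.56 RPKM. Wdr43, part of the machinery that matures small ribosomal subunits, starts 140.6 kb above the end of Smchd1. It had 251.5, 266.7 and 267.1 CPM in wt and 259.4, 253.5 and 310.6 CPM in mat del lines, a log2 fold change of 0.07 (SE 0.11). Trmt61b, a mitochondrial tRNA methyltransferase, measured 8.68, 7.79 and 7.96 CPM in wt and 7.65, 7.47 and 4.90 CPM in mat del lines. All mat del lines were below all wt lines, mat del line 3 by far the most, and the log2 fold change was -0.28 (SE 0.20, unadjusted p 0.205 in edgeR's quasi-likelihood test), or -0.10 without mat del line 3. Fam98a and Ttc27 had log2 fold changes of 0.07 and -0.12. Of the 4 genes 0 had an unadjusted p under 0.05.

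Metabolic and membrane traffic genes included 2 of 7 tested in which the mat del lines were wholly lower, beside 4.68% of all tested genes. Memo1, linked to cell motility downstream of receptor tyrosine kinases, measured 50.6, 49.9 and 53.0 CPM in wt and 45.9, 49.6 and 41.5 CPM in mat del lines, and its log2 fold change was -0.16 (SE 0.11), or -0.098 without mat del line 3. Mat del line 2 and wt line 2 were almost level. Yipf4, a Golgi membrane protein, measured 40.6, 39.4 and 44.2 CPM in wt and 38.6, 37.2 and 31.2 CPM in mat del lines, and its log2 fold change was -0.22 (SE 0.12, unadjusted p 0.108 in edgeR's quasi-likelihood test), or -0.13 without mat del line 3. The phosphatidate phosphatase gene Lpin2 (log2 fold change 0.20), the lysocardiolipin acyltransferase gene Lclat1 (0.17) and the zinc transporter gene Slc30a6 (-0.08) overlapped between genotypes, as did the small GTPase gene Rab12 (0.07) and Ehd3 of endocytic recycling (0.35). Without mat del line 3 the values were 0.054 for Lpin2, -0.056 for Lclat1 and 0.19 for Ehd3, and Ehd3 ran from 0.19 to 0.55 with 1 line left out at a time. Galnt14 and Xdh were not tested, with 8 and 1 counts over all 6 libraries, and Srd5a2 had none. Of the 7 tested genes of both lists, 0 had an unadjusted p under 0.05.

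Genes best known from other tissues were low or absent. Dlgap1, which encodes a scaffold protein of the postsynaptic density (69969073 to 70821413, plus strand), measured 3.82, 3.55 and 3.63 CPM in wt and 2.90, 2.48 and 2.98 CPM in mat del lines. The wt lines lay close together and above each mat del line, and the mat del mean was 76.0% of the wt mean. In the fit this was a log2 fold change of -0.40 with an SE of 0.18 (unadjusted p 0.0635 in edgeR's quasi-likelihood test, 0.0483 with the line number as a block, 0.0429 in DESeq2, adjusted p 0.992, 0.773 and 1.00). Themis3 and the inflammasome gene Nlrc4 were below 0.5 CPM in every line, with log2 fold changes of -0.57 (SE 0.45) and -0.03 (SE 0.43), and that of Themis3 was -0.35 without wt line 3. Of the 3 tested genes of this list, 0 had an unadjusted p under 0.05, or 1 (Dlgap1, lower) with the block. The block called 2.06% of all tested genes in that direction. Lrrc30 and Akain1 had 43 and 7 counts over all 6 libraries and were not tested, and Capn13 had none.

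Distance from Smchd1 did not order the fold changes. The median log2 fold change was -0.08 for the 21 tested genes within 1 Mb, 0.066 for the 11 between 1 and 2.5 Mb and -0.059 for the 20 beyond 2.5 Mb. Across the 52 genes Spearman's rank correlation was 0.15 between the log2 fold change and the absolute distance, and 0.14 between its size and the distance. This is a description over genes that share the same 6 libraries. Genes on the side of lower coordinates had a median of -0.02 (26 genes) and those on the side of higher coordinates -0.032 (24 genes), and 5 of the 6 genes wholly lower in mat del lines were on the latter, 20.8% of its 24 genes beside 3.85% of the 26 and 4.68% of all tested genes. These shares rest on few genes and were not tested. Size went with level more than with distance, with a Spearman correlation of -0.44 between the absolute log2 fold change and the mean level. The 24 genes with a mean of at least 10 CPM all lay between -0.23 and 0.40 on the log2 scale, with SEs of at most 0.21.

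Emilin2 and Lpin2 are the tested genes with the start coordinates nearest to Smchd1 on the side of lower coordinates. The start coordinate of Emilin2, the 3' end of this minus-strand gene, is 92.3 kb below that of Smchd1. Emilin2 differed by -0.21 (SE 0.26) on the log2 scale, or by -0.015 without wt line 3. Lpin2, on the plus strand, starts 161.9 kb below the start coordinate of Smchd1. It measured 25.2 ± 3.10 CPM in wt and 29.0 ± 5.18 CPM in mat del lines. Both overlapped between genotypes. At the edges, the outermost tested members, Gm49937 (log2 fold change -0.29, or -0.037 without mat del line 3) and Fam98a (0.07), stood beside Mtcl1 (0.14), the first tested gene outside the lower edge, and Crim1 (0.15), the first outside the upper edge after 2.65 Mb with no tested gene.

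In 5 Mb bins along chromosome 17 the median log2 fold change ran from -0.218 (5 genes) to 0.153 (6 genes). The bins that overlap the interval gave 0.066 from 65 to 70 Mb (25 genes), -0.077 from 70 to 75 Mb (37 genes) and 0.047 from 75 to 80 Mb (20 genes). These values lay inside the range of the other bins. The bin from 65 to 70 Mb also holds genes below the window. In the bin from 75 to 80 Mb only Ltbp1 and Fam98a are members, so its median mostly describes genes outside the window.

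**Figure D3:**
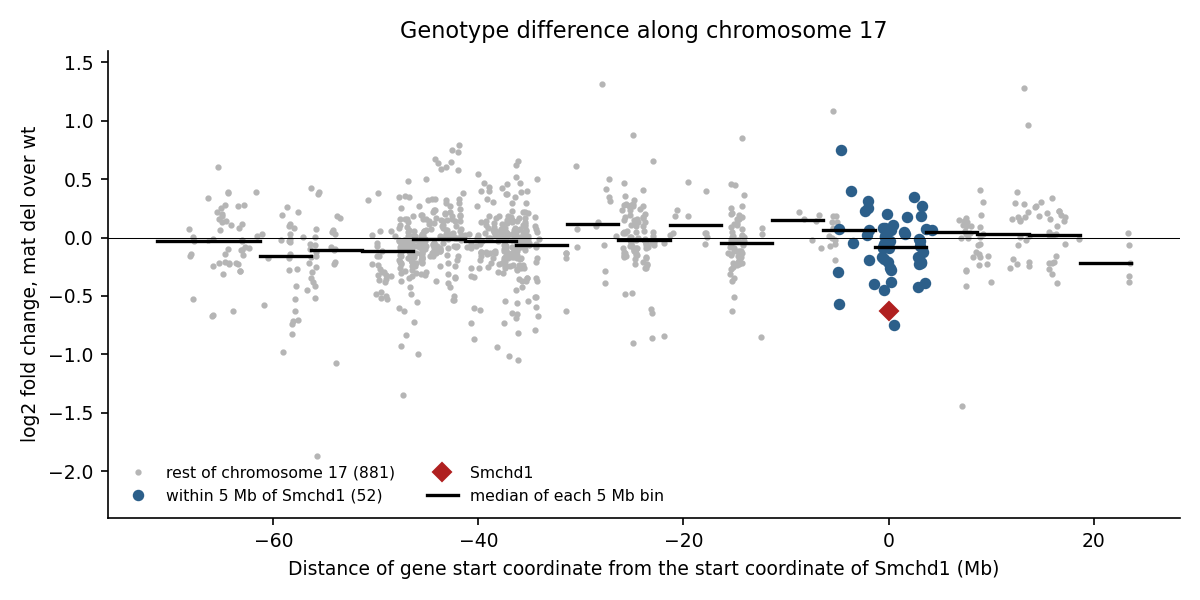
The log2 fold change (mat del over wt) of each tested gene of chromosome 17 is plotted against the distance in Mb of its start coordinate from that of Smchd1, with the 52 neighbours in blue, the 881 other genes in grey, Smchd1 as a diamond and black lines at the median of each 5 Mb bin. The neighbours fall within the spread of the rest of the chromosome, between -0.75 and 0.75.

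Mat del line 3 stood apart from the other lines. For each gene and line, the log2 CPM was set against the mean of the 6 lines, and the median of these deviations was taken. Over the 35 tested protein-coding members it was -0.016, -0.062 and -0.002 in wt lines 1 to 3, -0.044 and -0.034 in mat del lines 1 and 2, and 0.149 in mat del line 3. Over the 17 members of other biotypes mat del line 3 was the lowest instead, at -0.245, and wt line 3 the highest, at 0.23. The 725 other protein-coding genes of chromosome 17 were at -0.103 in mat del line 3, the opposite direction to their neighbours in the interval, and the median of whole autosomes other than chromosome 17 ran from -0.09 to 0.062 in any line.

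Transcript length moved with these shifts. Spearman's correlation between the deviation and exon length over 17666 tested genes was 0.31 in mat del line 3 and between -0.22 and -0.03 in the other 5 lines, and over the 52 members it was 0.37 in mat del line 3 and between -0.32 and -0.07 in the others. The tested protein-coding members had a median exon length of 4894 bases, beside 3542 for those on the rest of the chromosome. Lama1, Birc6, Wdr43 and Zbtb14, with exon lengths of 9681, 25772, 4775 and 4680 bases, were all highest in mat del line 3. Wdr43 and Zbtb14 lie just under the median length of 4894 bases. Epb41l3 and Lpin2, at 11919 and 12233 bases, were also highest in that line. Dlgap1, at 17890 bases, was below every wt line in mat del line 3, and Memo1, at 7079 bases, was lowest there. Clip4, Arhgap28 and Spast, at 8514, 5377 and 6164 bases, were not highest in that line. The part of transcript length in the values of these genes was not tested.

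**Figure D4:**
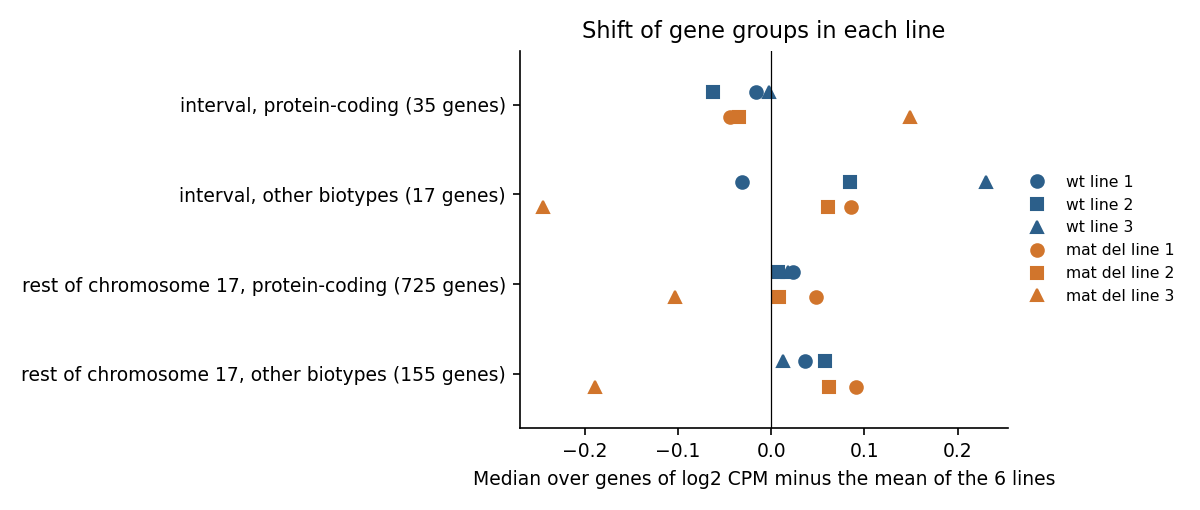
The median deviation of log2 CPM from the mean of the 6 lines is plotted on the horizontal axis for each wt (blue) and mat del (orange) line, over the protein-coding and other genes of the interval and of the rest of chromosome 17. Mat del line 3 (orange triangle) is at 0.149 for protein-coding genes of the interval and at -0.245 for its other biotypes, and the other lines lie between -0.062 and 0.23 for both kinds of gene in the interval.

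Genes that GENCODE M21 does not class as protein-coding made up 55 of the 101 members, and 29 of them had no count in any library. The 17 tested had a median log2 fold change of -0.168 and 13 were below 0, beside a median of -0.03 for 155 such genes on the rest of the chromosome. Their lines did not overlap in 0 cases in the higher and 2 in the lower direction (11.8%, beside 4.68% of all tested genes and 4.52% of this class on the rest of the chromosome). These were Trmt61b, which that annotation classes as antisense, and Gm49883, at 1.22, 1.31 and 1.36 CPM in wt and 1.22, 0.978 and 0.659 CPM in mat del lines. The log2 fold change of Gm49883 was -0.43 (unadjusted p 0.166 in edgeR's quasi-likelihood test), -0.25 without mat del line 3 and -0.65 without mat del line 1, and mat del line 1 missed wt line 1 by a narrow margin. Of the 46 protein-coding members, 35 were tested, with a median of 0.012.

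Several members have gene models that overlap, and their counts are not separate measurements. Gm49909, the highest member per length at a mean of 156.9 RPKM, has 61.5% of its exon bases in exons of Myl12b and 38.5% in exons of Myl12a, and its log2 fold change of 0.00 stands beside 0.01 for Myl12a and -0.08 for Myl12b. Gm26561 (plus strand, 70878078 to 71393284) and Gm38220 (minus strand, inside Smchd1, 71391838 to 71393284) share 1229 exon bases. Gm26561 had 22, 102 and 49 counts in wt and 80, 70 and 36 in mat del lines, and Gm38220 had 23, 108 and 57 and then 89, 76 and 46. The counts of Gm26561 were 78.3% to 95.7% of those of Gm38220, and without strand the reads of these genes cannot be told apart. Spdya and Trmt61b, which overlap on opposite strands by 402 exon bases, have the same limit. In all, 58 of the 101 members overlap another listed gene and 17 of the 52 tested share exon bases with one.

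The members inside Smchd1 had little RNA. Gm37639 (71366052 to 71368836) had 0, 5 and 1 counts in wt lines and 15, 12 and 1 counts in mat del lines, or 0.00, 0.0384 and 0.0210 CPM against 0.124, 0.111 and 0.0287 CPM. Mat del lines 1 and 2 stood above the rest, with mat del line 3 close to the wt lines. It lies on the same strand as Smchd1 with no shared exon base, and it was below the filter in the fit of all 6 libraries. Gm4707, also on that strand, was at 0.256 ± 0.0584 CPM in wt and 0.204 ± 0.114 CPM in mat del lines. Of the 49 members not tested, 32 had no count and 17 had 1 to 43 counts over the 6 libraries. In the fit over all genes with any count, 69 members were tested and 0 passed the adjusted threshold.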

How the data were processed

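RNA-seq of 6 mESC lines in 2i + LIF (polyA RNA, TruSeq stranded or non-stranded kits, paired-end reads) was used. The kit of each library is not given in the sources used here. The authors trimmed reads with Trim Galore 0.4.4, mapped them to GRCm38.p6 with HISAT2 2.0.5 and quantified genes in SeqMonk, and deposited raw read counts per gene without normalization. Whether counting used strand is not given in the sources used here. The 45 columns of a differentiation time course, a separate single-end experiment, were not used, nor were deposited log2 RPKM values of selected genes. Groups and line numbers were taken from the sample labels.

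Genotypes were compared by the quasi-likelihood test of edgeR 4.0.16 (R 4.3.3) over 17696 genes left by its default filter, after scaling with TMM factors, and p-values were adjusted by Benjamini-Hochberg with a threshold of 0.05. The test was also run on simulated counts, drawn independently for each gene and line. These had no length shift in mat del line 3 and no shared deviations of same-numbered lines. That run therefore does not show how the test behaves where lines deviate in these ways. RPKM was computed here from CPM and GENCODE M21 (GRCm38) exon lengths, matched by gene ID for 99.9% of genes and all 101 members, whose start and end were the same in both. Alternatives were RLE and total-count scaling, other filters, DESeq2 1.42.0, edgeR's exact test, each line left out, smaller windows, named genes only and the line number as a block. Same-numbered lines deviated together (correlations 0.165, 0.334 and 0.383), and for the block the numbers were taken to pair lines. This pairing comes from the data, since the labels and methods give separate lines. Correlations between differently numbered lines were not computed, so the pairing was not tested. Tables and plots were made in Python 3.11.15 with pandas 2.3.3, scipy 1.17.1 and matplotlib 3.10.9.

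The members, gene lists and alternatives were chosen with earlier results of these data known. Genes named were Smchd1, the 5 tested members nearest by start coordinate on each side, those with an unadjusted p under 0.05, the 5 highest by RPKM, those with the largest changes among genes whose lines do not overlap, the edge genes and the members of the role lists. Gm37639, Gm38220, Gm26561 and Gm4707 were named after their values were seen. Precision is limited by 3 lines per genotype and, for genes with few counts, by a depth of 27526359 to 126716460 counts.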

Additional observations from a re-analysis of the deposited data

How the results depend on the processing

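The count of 0 neighbours past the adjusted threshold was the same under each alternative. Smchd1 itself did not pass that threshold in any fit. The median log2 fold change of the tested neighbours, -0.038, was near 0 throughout and changed sign under some alternatives. It was 0.031 for genes with any count (69 members), 0.011 where each library had 10 counts or more (43 members), 0.021 without genes of the Gm or Rik kind, -0.08 within 1 Mb, and -0.053 to 0.018 with 1 line left out. That of the rest of chromosome 17 ran from -0.072 to 0.003 with 1 line left out. At an unadjusted p under 0.05, the count in the higher direction was 3 with the replicate block (2.07% of all genes) and 0 within 1 Mb or 2.5 Mb. With 1 line left out this count was 0 to 2, being 0 without wt line 1 (0.688%) and 2 without mat del line 1 (2.14%), 2 (0.962%) or 3 (1.04%). In the lower direction the count was 1 with the replicate block (2.06%), 1 with DESeq2 (1.31%), and 0 to 1 with 1 line left out, being 1 without mat del line 3 (1.23%). The replicate block put 730 of all genes at an unadjusted p under 0.05, beside 397 without it, and 0 past the adjusted threshold. It changed no other call. Members with non-overlapping lines were 3 higher and 11 lower without mat del line 3, beside 10.3% and 10.4% of all tested genes. No member named singly passed the adjusted threshold under any alternative. With 1 line left out, log2 fold changes ran from -0.14 to 0.10 for Arhgap28, -0.059 to 0.32 for Birc6, -0.038 to 0.24 for Clip4, -0.14 to 0.15 for Gm49909, -0.072 to 0.095 for Lbh, -0.056 to 0.34 for Lclat1, -0.0014 to 0.12 for Ltbp1, -0.044 to 0.080 for Myl12a, -0.23 to 0.13 for Myl12b, -0.10 to 0.25 for Myom1, -0.14 to 0.036 for Ndc80, -0.24 to 0.53 for Nlrc4, -0.019 to 0.14 for Rab12, -0.066 to 0.043 for Spast and -0.029 to 0.14 for Wdr43. Total-count scaling gave -0.014 for Gm49909 and -0.0013 for Myl12a. Nlrc4 was at 0.0072 with DESeq2, 0.0021 for genes with any count and 0.074 with the replicate block. Where leaving out a line or a filter changed a value the cause was not tested.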
